A study of Mus musculus with 6 samples.

Results

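The Bcl2 family and the related regulator Cflar were followed across splenic B cells of wild type and Btk-defective mice. The rule named 9 genes: the survival genes Bcl2, Bcl2l1 and Mcl1, the death genes Bid, Bax, Bak1, Bad and Bcl2l11, and Cflar. All probe sets annotated to a single symbol among these were taken, which gave 14 of the 12488 probe sets on the array and 8 of the 9 genes. Bax was not analysed here.

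Bcl2 family proteins meet at the outer membrane of mitochondria. The survival members hold the pore formers Bax and Bak1 in check, and the BH3-only members Bid, Bad and Bcl2l11 (Bim) bind survival members or activate the pore formers, after which cytochrome c leaves and caspases are switched on. In mature B cells, survival depends on tonic and antigen-driven signals of the B cell receptor and on BAFF, and Btk lies on the receptor's path.

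Messenger RNA was measured on 6 Affymetrix MG_U74Av2 arrays, 2 per group, from whole splenic B cells of adult mice. The groups were wild type CBA, Xid, which is the strain CBA/N with the R28C substitution in Btk, and Btk KO. The Btk KO line came from Btk KO/SW129 mice bred back to CBA for 9 generations. No treatment is given for any group, and the strain differences and the Btk defects cannot be told apart. Each group has 1 array in run 1 and 1 in run 2, the latter made with new RNA from new mice, and the labels do not say whether mice were pooled. With 2 arrays a group, p-values measure the spread between these arrays only.

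Btk was measured first, as a check of the labels. The intensity of its brighter probe set, 92668_at (scaled units, run 1 then run 2), was 874.1 and 749.8 in wild type. Xid arrays gave 841.0 and 643.9 and knockout arrays 276.1 and 173.6. Both Btk KO arrays lay below the other 4. The log2 difference from CBA was -1.86 ± 0.27 (SE), with limma adjusted p = 0.052 without and 0.0053 with the run as a block. Where the probes lie relative to the deleted part is not known here.

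The Gapdh control probe sets, which compare the 3' and 5' ends of a transcript, gave a ratio of 10.4 on the Btk KO array of run 1 and 0.756 to 1.61 on the other arrays. The hybridisation day of that array was shared with no other array. All 15 measured B cell markers were present, at an intensity of 49.5 or more on every array, and their summed intensity was 39550 to 39818 for CBA, 29724 to 41282 for Xid and 26809 to 32064 for Btk KO. Markers of macrophages, neutrophils, NK cells and red cells were summed as well, over the genes that passed the filter on dim values. It kept 18 of 21 macrophage, 9 of 14 neutrophil, 11 of 11 NK and 12 of 13 erythroid genes with a probe set. In Btk KO the summed intensity was 13638 to 17850 against 4611 to 6583 in CBA for 18 macrophage genes, 1107 to 1754 against 387 to 454 for 9 neutrophil genes, 1450 to 3311 against 582 to 1135 for 11 NK genes, and 11831 to 23776 against 6280 to 8434 for 12 erythroid genes. T cell markers, 7 of 12 genes with a probe set, summed to 892 to 1061 against 746 to 1007. Above CBA without overlap in Btk KO lay 16 macrophage, 5 neutrophil, 10 NK, 10 erythroid and 3 T cell genes, against 20% of all probe sets. Below CBA lay 1 T cell gene and 0 of the others, against 16% of all. The median log2 difference of the neutrophil genes was 0.46 and the highest 3.0, so their sum rests on some genes more than others. In Xid the macrophage sum was 8785 to 13273 and the neutrophil sum 402 to 556. The NK sum was 891 to 1643, the erythroid sum 8488 to 9776 and the T cell sum 887 to 930. Above CBA without overlap in Xid lay 16 macrophage, 2 neutrophil, 6 NK, 3 erythroid and 1 T cell gene. Of all probe sets 17.0% did. Below CBA lay 1 erythroid gene and 0 of the others, against 14.4% of all probe sets. No kept marker gene of any list was at 0 on any array, and the part of these cells in the results below was not tested. In whole samples, fewer cells of a type and less RNA per cell cannot be told apart.

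Bcl2 and Bid, a survival gene and a death gene, were both lower in the Btk-defective lines, by their brightest probe sets to between 43.2% and 54.7% of CBA. In Btk KO both fell in the model with the run as a block, and neither passed there once the Btk KO array of run 1 was left out, which leaves 1 array in that group. The log2 differences were then -1.14 for Bcl2 and -1.25 for Bid (limma adjusted p = 0.061 and 0.066), against -1.19 and -1.07 with all arrays. Bcl2l1 was higher on both Btk KO arrays and did not pass in that model, while Bak1, Bad and Cflar had log2 differences between -0.04 and 0.16 from CBA on their brightest probe sets, with wide intervals. Without the Btk KO array of run 1 those in Btk KO lay between -0.30 and 0.24. Of the 14 probe sets 12 passed the filter on dim values (a mean of about 19.8), and the others, 1 for Bcl2l1 and 1 for Bcl2l11, read at most 6.2 and 13.4 on any array.

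In the counts, a probe set passed where its limma p-value, adjusted over all 7453 kept probe sets, was under 0.05. For Btk KO against CBA, 0 of the 12 family probe sets passed without the run block, where 0.174% of all did, and 4 had an unadjusted p under 0.05, as 8.83% of all did. With the block 3 passed, all lower, against 2.23% of all probe sets and 0.805% in the lower direction. They belong to 2 of the 8 genes: 98868_at and 98869_g_at share a sequence record of Bcl2, and 98433_at is Bid. Of the family 6 had an unadjusted p under 0.05 with the block, against 15.1%. With the block and the Btk KO array of run 1 left out 0 passed, against 1.22% of all. For Xid against CBA 0 passed in either limma fit, where 0.0671% of all probe sets did without and 0.483% with the block. Of the family 3 and 5 had an unadjusted p under 0.05, against 4.43% and 8.1% of all. With the block and the Btk KO array of run 1 left out, the Xid differences from CBA cannot change. Only the estimate of their spread does, so that fit is no firmer evidence for Xid. For Btk KO against Xid 0 passed in either fit, where 0.0403% and 0.188% of all did, and 0 with the block and that array left out, against 0.161%. Of the family 1 and 2 had an unadjusted p under 0.05, against 3.61% and 7.31% of all. Both comparisons with CBA use the same CBA arrays, so their values for a gene stand side by side and are no separate evidence.

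**Figure D1:**
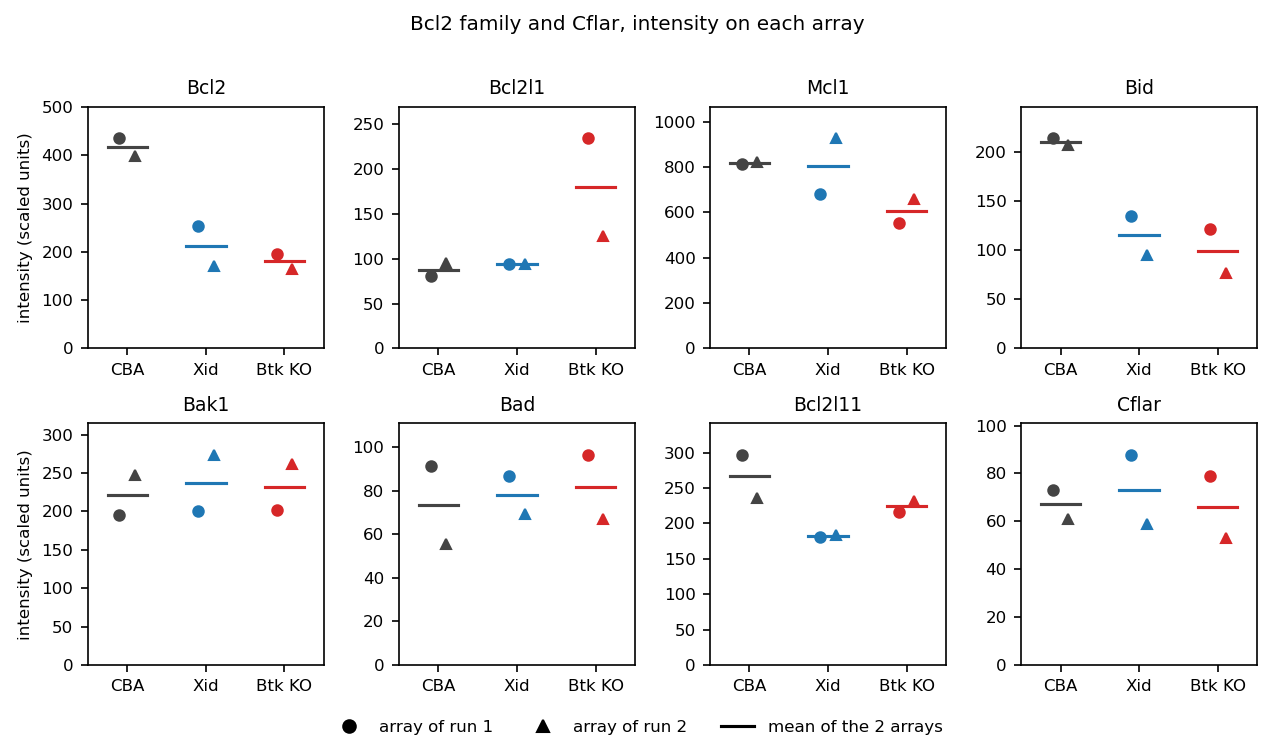
Intensity (scaled units, linear axis from 0) of the brightest kept probe set of each of 8 genes on each array. Circles are run 1, triangles run 2, and lines the mean of 2 arrays. Bcl2 and Bid lie lower on all 4 arrays of the Btk-defective lines, and Bcl2l1 is high on the Btk KO array of run 1. Heights of different genes are not comparable.

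Bcl2, the founding survival member, was measured by 3 probe sets annotated to the same sequence record, so they are not independent. The brightest, 98869_g_at, read 434.8 and 399.0 in CBA, 253.2 and 169.9 in Xid, and 195.5 and 164.6 in Btk KO (run 1 and run 2). All 4 arrays of the mutant lines lay below both CBA arrays, while Xid and Btk KO overlapped.

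Its mean in CBA was 417 ± 25.3 (SD, n = 2 arrays), against 212 ± 58.9 for Xid and 180 ± 21.8 for Btk KO. Btk KO thus stood at 43.2% of CBA and Xid at 50.7%. The log2 difference of Btk KO from CBA was -1.19 ± 0.24 (SE), at -1.13 in run 1 and -1.25 in run 2. It did not pass without the run block (limma adjusted p = 0.15) and passed with it (0.019). When the Btk KO array of run 1, whose Gapdh ratio was 10.4, was left out, the blocked difference was -1.14 with adjusted p = 0.061.

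For Xid the Bcl2 log2 difference was -0.98 ± 0.24, at -0.77 and -1.20 within the runs. The limma adjusted p was 0.48 without and 0.098 with the block. Leaving out the Btk KO array of run 1 cannot change this difference, only the estimate of its spread. Between Btk KO and Xid the log2 difference was -0.20, with a 95% interval of -0.77 to 0.36.

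The next Bcl2 probe set, 98868_at, read 209.9 and 142.1 in CBA, 130.9 and 71.5 in Xid, and 106.0 and 58.1 in Btk KO. It was lower in both mutant lines in each run, and the groups did not overlap with CBA. Its log2 difference was -1.08 ± 0.39 in Btk KO, which passed with the block alone (limma adjusted p = 0.45 without and 0.037 with it, and 0.094 with the block once the Btk KO array of run 1 was left out, at -1.14), and -0.80 ± 0.39 in Xid (1.0 and 0.20). Leaving out 1 array at a time gave -1.48, without the Btk KO array of run 1, to -0.67 in Btk KO, and -1.21 to -0.39 in Xid.

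The remaining probe set, 98870_at, read 163.7 and 204.8 in CBA, 96.8 and 135.9 in Xid, and 59.5 and 165.0 in Btk KO. Xid lay below CBA, but the Btk KO arrays differed from each other and overlapped with CBA. Its log2 difference in Btk KO was -1.37 in run 1 and -0.30 in run 2, and without the Btk KO array of run 1 the unblocked value was -0.15 in place of -0.84. It did not pass in any fit for either line (limma adjusted p = 0.20 in Btk KO and 0.61 in Xid with the block).

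**Figure D2:**
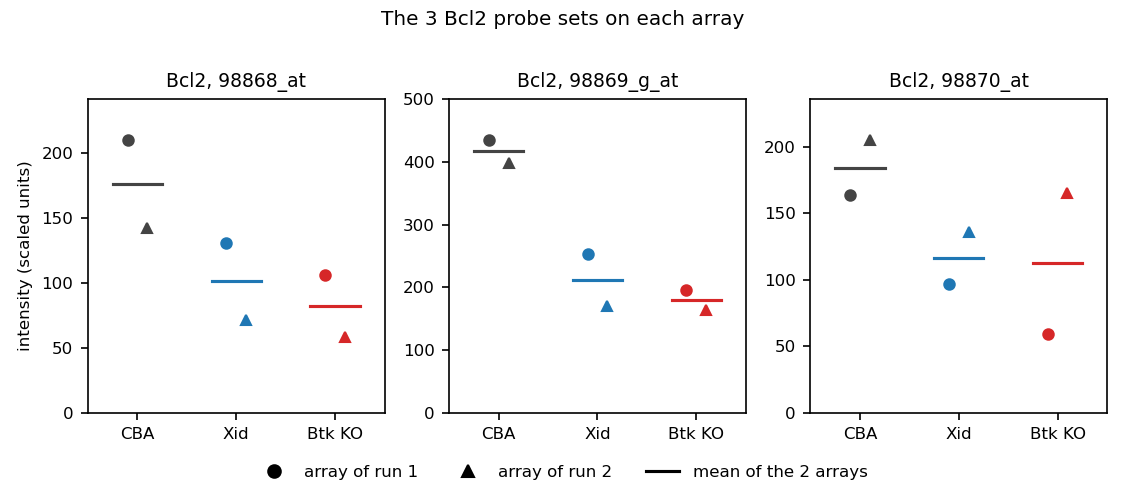
Intensity (scaled units, linear axis from 0) of the 3 Bcl2 probe sets on each array, with circles for run 1, triangles for run 2 and lines at the mean of 2 arrays. All 3 group means are lower in Xid and Btk KO than in CBA. The third probe set is higher in run 2 than in run 1 in every group, the reverse of the first and second.

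The probe sets differed between the runs in different ways. In all 3 groups 98868_at was lower in run 2 than in run 1, by -0.54 to -0.82 on the log2 scale, while 98870_at was higher, by 0.31 to 1.38, the largest step being that of Btk KO. Of the 12 family probe sets 4 were higher and 5 lower in run 2 in every group. Among all kept probe sets 44.6% moved the same way in all groups, so shifts between the runs were common.

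Bid is a BH3-only protein that caspase 8 cuts, which links death receptors to mitochondria. Its intensity was 214.3 and 207.2 in CBA, 135.6 and 95.1 in Xid, and 122.0 and 77.0 in Btk KO. Every array of the mutant lines lay below both CBA arrays, and the CBA arrays lay close together.

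Group means of Bid were 211 ± 5.02, 115 ± 28.6 and 99.5 ± 31.8 (SD, n = 2), so that Btk KO stood at 47.2% and Xid at 54.7% of CBA. In Btk KO the log2 difference was -1.07 ± 0.28, at -0.78 and -1.36 within the runs. It did not pass without the block (limma adjusted p = 0.27), passed with it (0.047), and did not pass with the block and without the Btk KO array of run 1 (-1.25, 0.066). In Xid the log2 difference was -0.86 ± 0.28, at -0.64 and -1.08 within the runs, with adjusted p = 0.81 and 0.20. Between Btk KO and Xid it was -0.22, with a 95% interval of -0.87 to 0.44.

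The B cell markers had lower medians too. Without the Btk KO array of run 1 and without the block, their median in Btk KO was -0.64. In that fit Bcl2 was at -1.31 (98869_g_at), -1.48 (98868_at) and -0.15 (98870_at), and Bid at -1.38. The values that follow are from all arrays. Over 15 genes the median log2 difference was -0.16 in Xid and -0.52 in Btk KO, against a median of 0.01 for all probe sets in both comparisons, and the lowest marker was at -0.57 and -0.97. In Btk KO 12 of the 15 markers lay below CBA without overlap, as 16% of all probe sets did. None of these markers passed in either limma fit (0). In Btk KO 5 and 9 had an unadjusted p under 0.05 without and with the block, against 8.83% and 15.1% of all probe sets, and in Xid 0 and 5 did, against 4.43% and 8.1%. The part of the markers' shift in the Bcl2 and Bid values was not tested.

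Among regulators of the family, Nfatc1, a calcium-dependent factor of the B cell receptor pathway, fell in both lines with the run block. It read 322.7 and 578.5 in CBA, 107.3 and 176.7 in Xid, and 80.8 and 183.5 in Btk KO. Neither line overlapped with CBA. The log2 difference was -1.61 ± 0.44 in Xid and -1.77 ± 0.44 in Btk KO, with limma adjusted p = 0.58 and 0.24 without the block and 0.019 and 0.0064 with it, where 0.483% and 2.23% of all probe sets passed. With the Btk KO array of run 1 left out, the log2 difference in Btk KO was -1.59 with the block and -1.21 without it. In Xid it was -1.61 in both of these fits.

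Within each group Nfatc1 read higher in run 2 than in run 1, while Bid and Bcl2 98869_g_at read lower in run 2.

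Bcl2 and Bid were the members with the widest ranges of group means, and their promoter windows are shown for that reason. The core letters of an NFAT site, GGAAA on either strand (TTTCC on the strand shown), are in capitals. Both windows hold the 250 bases before the start, 5′ to 3′ on the gene's strand, from RefSeq on GRCm38.p6. That of Bcl2 lies at chr1:106714291-106714540 and that of Bid at chr6:120916825-120917074, both on the minus strand.
Bcl2: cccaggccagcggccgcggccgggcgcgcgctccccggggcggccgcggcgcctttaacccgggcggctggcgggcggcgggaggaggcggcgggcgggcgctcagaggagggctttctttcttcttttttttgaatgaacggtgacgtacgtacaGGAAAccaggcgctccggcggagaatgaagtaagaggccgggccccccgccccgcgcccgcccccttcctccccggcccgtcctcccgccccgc
Bid: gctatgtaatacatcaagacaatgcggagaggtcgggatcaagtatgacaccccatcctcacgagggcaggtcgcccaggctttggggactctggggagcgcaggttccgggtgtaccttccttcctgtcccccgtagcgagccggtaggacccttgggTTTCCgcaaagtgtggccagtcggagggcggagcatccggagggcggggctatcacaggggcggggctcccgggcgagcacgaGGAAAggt

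The Bcl2 window held 1 match, whose first base lies 94 bases before the start, and the Bid window held 2, at 91 and 8 bases before it. Such a match stood in a window of 7 of the 9 family genes, among them Mcl1, Bak1, Bad and Bcl2l1, so it does not set Bcl2 and Bid apart. Of 32536 distinct promoter windows of this length 55.7% held at least 1 such match. That share counts single windows, while a family gene counted by any of its windows, 13 in all, so the 2 figures are not alike. GC boxes (GGGCGG, either strand), which were found 7 times in the Bcl2 window and 3 times in the Bid window, occurred in 33.0% of all windows. A GC box and the NFAT core can overlap at their G bases. These are matches of letters, and no binding was measured.

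Bcl2l1 encodes Bcl-xL, a survival protein that activated B cells and red cell precursors of the mouse need. Its bright probe set, 99027_at, read 80.5 and 94.8 in CBA, 93.7 and 93.9 in Xid, and 233.7 and 124.9 in Btk KO. Both Btk KO arrays lay above the other 4, and the array of run 1 was by far the higher.

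Its group means were 87.7 ± 10.1, 93.8 ± 0.141 and 179 ± 76.9 (SD, n = 2), a ratio of 2.05 for Btk KO over CBA. The log2 difference was 0.92 ± 0.31 from CBA and 0.83 ± 0.31 from Xid. Neither passed without the run block (limma adjusted p = 0.40 and 1.0) or with it (0.17 and 0.56). Against CBA the difference was 1.47 in run 1 and 0.38 in run 2, and without the Btk KO array of run 1 it was 0.49. In the fit that left out the Btk KO array of run 2 instead it was 1.36 and passed (adjusted p = 0.049). That fit has 1 Btk KO array, the one with the Gapdh ratio of 10.4, and takes its spread from the other groups. In Xid the log2 difference was 0.10, with a 95% interval of -0.62 to 0.81.

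Erythroid markers were highest on that same array. Their summed intensity was 23776 there and 11831 on the Btk KO array of run 2, against 6280 to 9776 on the other 4 arrays. Of the 12 genes 10 lay above CBA on both Btk KO arrays without overlap, as 20% of all probe sets did, and their median log2 difference was 1.43. The part of red cell precursors in the Bcl2l1 value was not tested.

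**Figure D3:**
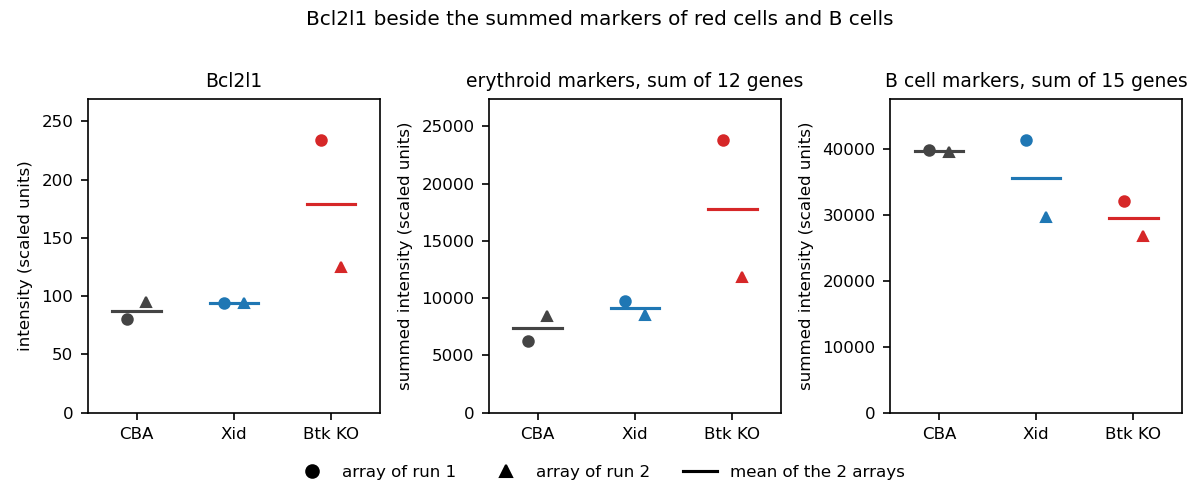
Bcl2l1 intensity and the summed intensity of 12 erythroid and 15 B cell marker genes on each array (scaled units, linear axes from 0), with circles for run 1, triangles for run 2 and lines at the mean of 2 arrays. Bcl2l1 and the erythroid sum are both highest on the Btk KO array of run 1, at 233.7 and 23776, and the B cell sum is lowest on the Btk KO array of run 2, at 26809.

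Mcl1, a short-lived survival protein that B cells need at many stages, had an intensity of 813.3 and 823.6 in CBA, 680.2 and 926.0 in Xid, and 551.6 and 658.7 in Btk KO. The Btk KO arrays lay below the other 4, and the Xid arrays lay on either side of CBA. In Btk KO it stood at 73.9% of CBA, a log2 difference of -0.44 ± 0.22, at -0.56 and -0.32 within the runs, which did not pass (limma adjusted p = 0.65 without and 0.28 with the block). In Xid the log2 difference was -0.04, with a 95% interval of -0.56 to 0.47, and 0.01 after quantile normalization.

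Bcl2l11 encodes Bim, the BH3-only protein that removes self-reactive and growth factor-deprived lymphocytes. Its bright probe set, 100988_at, read 296.5 and 236.1 in CBA, 181.0 and 183.6 in Xid, and 216.2 and 232.0 in Btk KO. Xid was the lowest group and CBA the highest, with no overlap among the 3.

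The Xid mean was 68.5% of CBA, a log2 difference of -0.52 ± 0.20, at -0.69 and -0.35 within the runs, and it did not pass (limma adjusted p = 1.0 without and 0.46 with the block). Btk KO differed from CBA by -0.23 ± 0.20 and from Xid by 0.29 ± 0.20, neither of which passed (0.83 and 1.0 without, 0.61 and 0.77 with the block). A dimmer Bcl2l11 probe set, 99418_at, read 26.4 to 56.8 over the 6 arrays, with log2 differences of -0.06 in Xid and 0.30 in Btk KO. Without the Btk KO array of run 1 the latter was 0.04, and the bright probe set ranged from -0.40 to -0.07 in Btk KO when 1 array was left out.

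Bak1, the pore former that is always on the mitochondrial membrane, had an intensity of 195.8 and 247.8 in CBA, 200.9 and 273.5 in Xid, and 201.4 and 261.5 in Btk KO. Each group was higher in run 2, and the groups overlapped. Its log2 difference was 0.09 in Xid, with a 95% interval of -0.49 to 0.67, and 0.06 in Btk KO, with an interval of -0.52 to 0.64 (-0.06 after median centring).

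Bad, a BH3-only protein that survival kinases silence by phosphorylation, was measured by 2 probe sets. The brighter, 161500_i_at, read 91.5 and 55.6 in CBA, 87.0 and 69.6 in Xid, and 96.5 and 67.1 in Btk KO, with log2 differences of 0.11 and 0.16, the latter -0.08 without the Btk KO array of run 1. The other, 99670_at, read 11.2 to 42.5, and its lowest value was that of the Btk KO array of run 1. Its log2 difference in Btk KO was -0.54 ± 0.48, and 0.06 without that array. Neither probe set passed in any comparison, and leaving out that array reversed the sign of both in Btk KO.

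Cflar encodes FLIP, which blocks caspase 8 at death receptors. It read 73.2 and 60.9 in CBA, 87.7 and 58.7 in Xid, and 78.9 and 53.1 in Btk KO. Run 1 was higher than run 2 in each group, and the groups overlapped. The log2 difference was 0.10 in Xid, with a 95% interval of -0.61 to 0.80, and -0.04 in Btk KO, with an interval of -0.75 to 0.67.

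**Figure D4:**
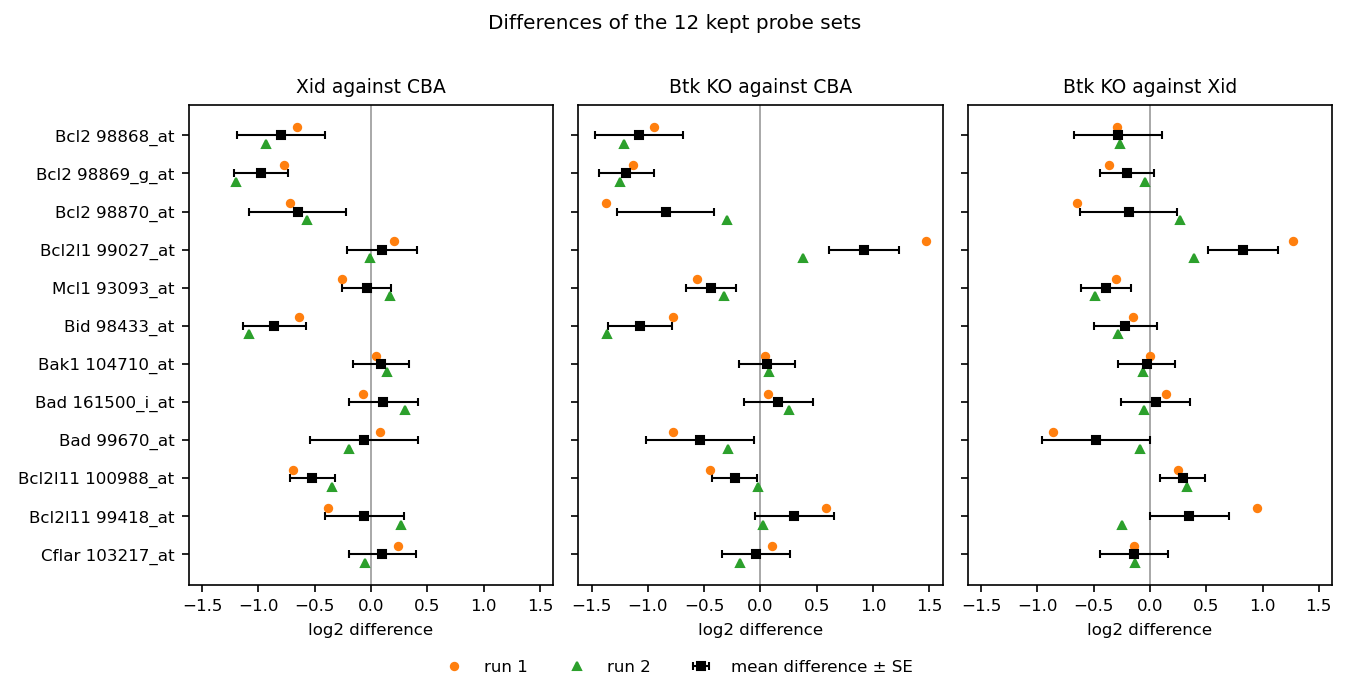
Log2 differences of the 12 kept probe sets in the 3 comparisons. Squares are the mean difference with its standard error (limma, n = 2 arrays a group), circles run 1 and triangles run 2. The Bcl2 and Bid points lie below 0 in both runs against CBA, from -0.30 to -1.37, and the Bcl2l1 points in Btk KO are 1.47 and 0.38.

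Counted over the 12 kept probe sets, 5 lay below CBA without overlap in Xid and 0 above, where 14.4% and 17.0% of all probe sets did. In Btk KO 5 lay below and 2 above CBA, where 16% and 20% of all did. Against Xid 1 lay below and 2 above in Btk KO, where 12.3% and 14.2% of all did. The median log2 difference of the family probe sets was -0.06 in Xid and -0.34 in Btk KO, against 0.01 over all probe sets in both. Since 3 of the 12 belong to Bcl2, the median over the 8 genes, each by its brightest probe set, was 0.02 and -0.14, the latter -0.24 without the Btk KO array of run 1. The members were chosen with results of these arrays known, so these counts describe the list and test nothing.

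Other Bcl2 relatives had 6 genes kept by the filter, of 8 with a probe set. None passed in any comparison in either limma fit (0, and 0 at an unadjusted p under 0.05). Over the 3 comparisons with the block, 0.188% to 2.23% of all probe sets passed and 7.31% to 15.1% had such a p. A count of 0 among 6 genes therefore shows little. In Btk KO all 6 had log2 differences above 0, from 0.10 to 0.39, with a median of 0.23, which was 0.14 without the Btk KO array of run 1. Bcl2l2 (Bcl-w), a survival member, read 55.9 and 35.3 in CBA and 58.8 and 54.5 in Btk KO, a log2 difference of 0.31. Bcl2l13, a mitochondrial relative, and Bnip3, a mitochondrial protein induced by low oxygen, differed by 0.16 and 0.39 in Btk KO and by -0.12 and 0.66 in Xid. Without that array the Btk KO values were 0.10 and 0.46.

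Caspases and their activators had 12 genes kept by the filter, of 16 with a probe set, and 0 passed in either limma fit. Against CBA, 0.0671% of all probe sets passed in Xid and 0.174% in Btk KO without the block, and 0.483% and 2.23% with it. A count of 0 among 12 genes therefore shows little. In each line 1 gene had an unadjusted p under 0.05 without the block, and 1 with it. Of all probe sets 4.43% in Xid and 8.83% in Btk KO had one without it, and 8.1% and 15.1% with it. Over the 12 genes the median log2 difference was -0.10 in Xid and -0.14 in Btk KO. Casp4, an inflammatory caspase named caspase 11 in the mouse, read 98.9 and 83.9 in CBA, 57.3 and 34.7 in Xid, and 56.7 and 48.8 in Btk KO. Both lines lay below CBA, with log2 differences of -0.94 ± 0.29 and -0.73 ± 0.29 (adjusted p = 0.24 and 0.20 with the block).

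Casp1, which matures interleukin 1 beta, differed by -0.41 in Xid and -0.22 in Btk KO. Apaf1, the scaffold of the apoptosome, differed by -0.40 in Btk KO and -0.05 in Xid. Htra2, a mitochondrial protease that relieves caspase inhibition, differed by 0.41 in Btk KO, and Cycs, cytochrome c, by 0.29 in Xid and -0.02 in Btk KO. Without the Btk KO array of run 1 Apaf1 differed by -0.21 and Htra2 by 0.17.

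Inhibitors of apoptosis had 6 measured genes, with 0 that passed in either limma fit and 0 at an unadjusted p under 0.05. Against CBA with the block, 0.483% of all probe sets passed in Xid and 2.23% in Btk KO, and 8.1% and 15.1% had such a p. A count of 0 among 6 genes therefore shows little. Xiap, which binds active caspases, differed by -0.33 in Xid and -0.32 in Btk KO. Birc3, an NF-kB target, differed by 0.14 and -0.11, the latter -0.30 without the Btk KO array of run 1. Birc5 (survivin), a gene of dividing cells, read 68.3 on the Btk KO array of run 1 and 23.7 to 31.0 on the other 5 arrays.

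Death receptors and their adaptors had 10 genes kept by the filter, of 12 with a probe set, and 0 passed in either limma fit. Against CBA, 0.174% of all probe sets passed in Btk KO and 0.0671% in Xid without the block, and 2.23% and 0.483% with it. A count of 0 among 10 genes therefore shows little. In Btk KO 3 had an unadjusted p under 0.05 and in Xid 0, without and with the block alike. Of all probe sets 8.83% and 4.43% had one without it, and 15.1% and 8.1% with it. Fasl, the ligand of Fas that T and NK cells make, read 12.3 and 22.9 in CBA, 12.5 and 34.4 in Xid, and 38.8 and 61.0 in Btk KO. Its log2 difference in Btk KO was 1.25 ± 0.48 (adjusted p = 0.50 without and 0.11 with the block), on arrays where NK markers had a median difference of 1.38. The CBA mean of 17.6 lies below the filter limit of about 19.8, so the size depends on the pseudocount. The filter used the mean over all 6 arrays, and Fasl passed it with the help of its high Btk KO values. Its difference and its place among the 3 genes above therefore describe the values and are no test.

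The tumour necrosis factor receptors Tnfrsf1a and Tnfrsf1b differed by 1.13 ± 0.38 and 0.52 ± 0.21 in Btk KO. In Xid the differences were 0.29 ± 0.38 and 0.29 ± 0.21. Tnfrsf1a in Xid was at 0.73 in run 1 and -0.16 in run 2 and overlapped with CBA, while Tnfrsf1b lay above CBA. Macrophage markers had a median difference of 1.49 in Btk KO and 0.96 in Xid. Daxx, a nuclear protein first found as a partner of Fas, differed by -0.39 and -0.34. The part of NK cells and macrophages in these values was not tested.

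Survival receptors and regulators had 17 genes kept by the filter, of 18 with a probe set. Of these Nfatc1 alone passed, in both lines with the block. With the block 2.23% of all probe sets passed in Btk KO and 0.483% in Xid. Without the block 0 passed with limma, where 0.174% of all probe sets did in Btk KO and 0.0671% in Xid, while 4 in Btk KO and 3 in Xid had an unadjusted p under 0.05, against 8.83% and 4.43% of all. Bcl6, the repressor of the germinal centre, read 203.2 and 183.2 in CBA, 93.1 and 116.3 in Xid, and 129.4 and 94.1 in Btk KO. Both lines lay below CBA, with log2 differences of -0.85 ± 0.24 and -0.77 ± 0.24 (adjusted p = 0.25 and 0.15 with the block).

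Relb, an NF-kB subunit of the alternative pathway, read 191.5 and 263.2 in CBA, 259.7 and 265.1 in Xid, and 127.1 and 173.4 in Btk KO. Btk KO was below the other groups, by -0.58 ± 0.24 from CBA and -0.80 ± 0.24 from Xid, and did not pass in either (adjusted p = 0.18 and 0.32 with the block). Without the Btk KO array of run 1 these were -0.36 and -0.58. Foxo3, an activator of Bcl2l11 in other settings, differed by 0.35 in Btk KO and -0.02 in Xid. Its Btk KO arrays read 346.7 in run 1 and 216.7 in run 2, and without the former the difference was 0.01.

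**Figure D5:**
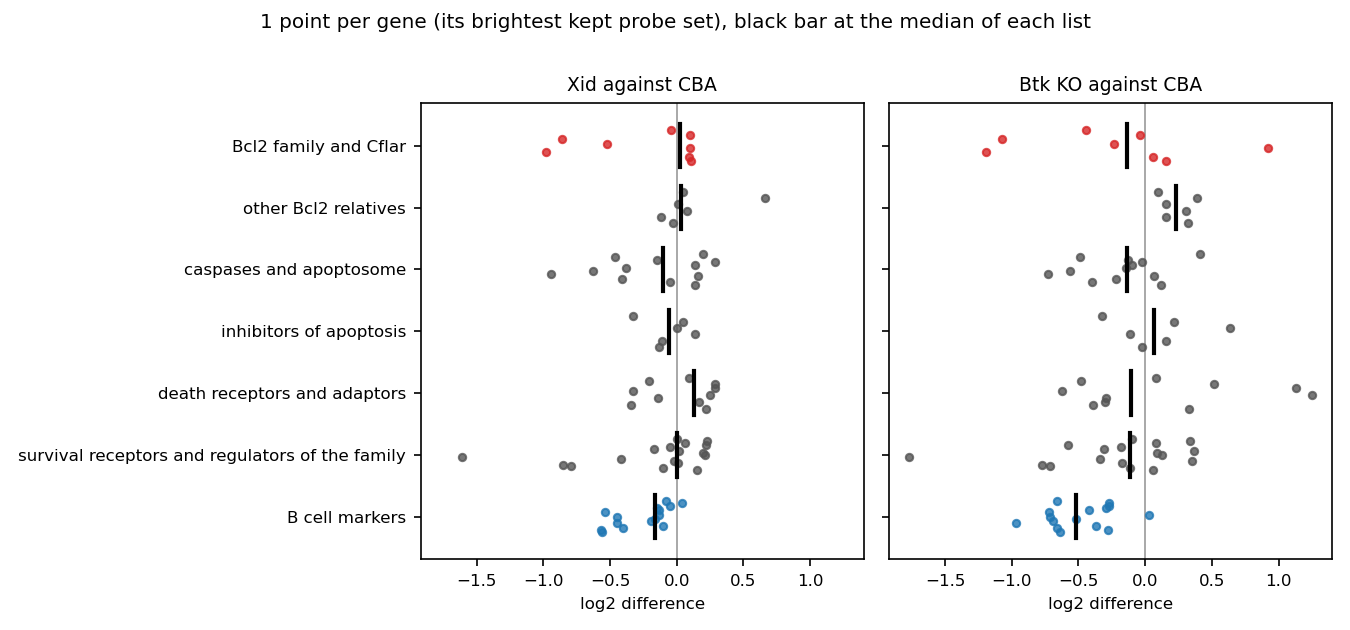
Log2 differences from CBA in Xid and Btk KO for the genes of 7 lists, 1 point per gene by its brightest kept probe set, with a black bar at each median. Bcl2 and Bid lie at the left of the family, B cell markers have a median of -0.52 in Btk KO, and Nfatc1 is the lowest regulator at -1.61 and -1.77.

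Bcl2 had the widest range of group means in the family, 1.19 on the log2 scale. By Pearson correlation over the 6 arrays its pattern was most like those of Ptprv, a receptor-type phosphatase gene (Pearson r = 0.989), Pigs (0.985), which acts in GPI anchor synthesis, and Neo1, the receptor neogenin (0.984). Over 6 arrays, 47 of 6668 other named probe sets had r over 0.9. Neo1 read 70.5 and 64.3 in CBA, 45.6 and 37.0 in Xid, and 35.7 and 36.5 in Btk KO. A correlation does not measure the size of a change. Bcl2 stood at 50.7% of CBA in Xid and 43.2% in Btk KO, and Pigs at 88.2% and 86.1%. Ptprv stood at 66.9% and 63.7%, and Neo1 at 61.3% and 53.6%.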

How the data were processed

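The arrays were MG_U74Av2, per the file headers. Each probe set has a linear intensity on every array in the table the authors deposited. How the probes were summarised is not given in the sources used here. These deposited intensities had been brought to a common scale, since the 2% trimmed mean came to 100.06 for all 6 arrays. Other settings in the deposited header files were not used, apart from chip lot and hybridisation day.

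The 66 control probe sets were left out. Of the rest, 10833 had 1 gene symbol, 396 several and 1193 none, and no gene was named from the latter kinds. Of those with 1 symbol, 10817 were matched by gene number to a table of GRCm38.p6. A pseudocount of 6 was added before taking log2, and probe sets with a mean log2 value below the 40th percentile were removed, which left 7453. Windows before gene starts came from RefSeq on the same build, and 9 of 9 family genes had one. The 3 comparisons were tested in 1 model of group means with limma 3.58.1 (R 4.3.3; lmFit, eBayes with an intensity trend), two-sided, with 3 residual degrees of freedom and Benjamini-Hochberg adjustment over the 7453. The fit without the run block was tested on simulated data with independent noise, no run effect and changes larger than those of the family. That test does not bear on the calls made with the block.

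The run numbers mark a shared set of chips, per the labels and the file headers: each run had its own chip lot, and the Btk KO array of run 1 had a hybridisation day of its own. Deviations from the group mean correlated within a run at 0.31 to 0.44 between groups. The model with the run as a block is therefore given beside each result whose call it changes, with 2 residual degrees of freedom. Without the Btk KO array of run 1 it has fewer.

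Members, gene lists and alternatives were chosen with earlier results of these data known. Every family gene is named. From each of the 5 other pathway lists, the genes that passed in any comparison and the 2 with the smallest p per comparison are named, while genes of the marker lists are given as counts and sums only. A gene is represented by its brightest kept probe set. For Bcl2, the gene with the widest range of group means, the 3 named genes with the highest Pearson correlation are given. Figures were drawn with matplotlib 3.10.9.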

Additional observations from a re-analysis of the deposited data

How the results depend on the processing

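The 36 differences of single family probe sets were recomputed under 16 alternatives. Of 570 values, 528 kept their sign and their side of the threshold, 5 newly passed and 37 changed sign. No value that changed sign started from a size above 0.54. Several alternatives cannot change a difference: the block with all arrays, the filters, the intensity trend, and leaving out arrays of the group not compared. No family probe set passed in the main fit, so none could lose a call. Of the 36 differences, 21 changed sign under some alternative. With the replicate block 3 family probe sets passed in Btk KO against CBA in place of 0, and 0 in the other comparisons. With the block and without the Btk KO array of run 1 it was 0 in Btk KO and 1, Bcl2, in Xid against CBA. Leaving out 1 array gave 0 to 1 in Btk KO against CBA, the 1 being Bcl2l1 without the Btk KO array of run 2.

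Over all probe sets, the counts for Xid against CBA, Btk KO against CBA and Btk KO against Xid were 5, 13 and 3. They were 36, 166 and 14 with the block, and 76, 91 and 12 with the block and without the Btk KO array of run 1. With only the groups compared they were 9, 0 and 0. A pseudocount of 1 gave 3 in Xid, and a pseudocount of 16 gave 5 in Btk KO against Xid. In Btk KO against CBA, quantile normalization, median centring and no filter gave 8 each, the stricter filter 29 and no intensity trend 0. Leaving out 1 array gave 0 to 9, 0 to 145 and 0 to 29. The cause of the fall to 0 was not tested.

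The sign changes other than by leaving out 1 array were Mcl1 in Xid after quantile normalization (0.01), Bak1 in Btk KO after median centring (-0.06), and, with the block and without the Btk KO array of run 1, Bcl2l11 99418_at in Btk KO (-0.14 against CBA, -0.08 against Xid) and Bcl2 98870_at against Xid (0.31). Median centring lowered the median of all probe sets in Btk KO against CBA by 0.11. Leaving out 1 array, the ranges of differences from CBA that crossed 0 in Xid were -0.01 to 0.21 for Bcl2l1, -0.26 to 0.18 for Mcl1, -0.13 to 0.30 for Bak1, -0.22 to 0.44 and -0.42 to 0.29 for Bad, -0.39 to 0.28 for Bcl2l11 99418_at and -0.17 to 0.36 for Cflar. In Btk KO they were -0.13 to 0.24 for Bak1, -0.17 to 0.49 and -1.14 to 0.06 for Bad and -0.30 to 0.22 for Cflar. Between Btk KO and Xid they were -0.69 to 0.13, -0.48 to 0.08 and -0.88 to 0.50 for Bcl2, -0.53 to 0.10 for Bid, -0.25 to 0.19 for Bak1, -0.20 to 0.29 and -1.08 to 0.13 for Bad, and -0.40 to 0.13 for Cflar. Without crossing 0, Bcl2 98868_at ranged from -1.48 to -0.67 in Btk KO and from -1.21 to -0.39 in Xid. A fit that leaves out 1 array has 1 array in that group, which is assumed to vary like the others. The 2 arrays a group limit the precision of all values.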
